A study of Mus musculus with 2 samples.

Results

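The clustered histone genes are the mouse genes that lie in the Hist1 to Hist4 arrays and encode the linker histone H1 and the core histones H2A, H2B, H3 and H4. They were taken from the deposited gene list by symbol, as every gene whose name starts with Hist1h, Hist2h, Hist3h or Hist4h, which gave 67 of 31053 genes. The rule used no measured value. The data are single-cell RNA-seq libraries of the mouse dentate gyrus at postnatal day 2, from a study of the chromatin regulator KDM6B in hippocampal neural stem cells. The control library came from littermate controls labelled WT, and the KO library from hGFAP-Cre;Kdm6bF/F mice. The hGFAP promoter drives Cre in radial glia, so recombination reaches their neuronal and glial descendants and leaves cells of other origins, such as endothelial cells, outside its reach. Each library pooled 2 animals, and the labels give no way of assigning a cell to an animal. With 1 library per genotype, each difference below compares 2 libraries, has no replicate check and carries no p-value, and the intervals cover counting error only.

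Most clustered histone genes are replication-dependent. They are transcribed in S phase under the coactivator NPAT, when newly made DNA has to be packed into nucleosomes, and their transcripts end in a conserved stem-loop bound by SLBP instead of a poly(A) tail. Some of them also give polyadenylated transcripts, through a poly(A) signal behind the stem-loop, in cells that have left the cycle. The libraries here were primed from poly(A) at the 3′ end, so what each histone gene contributes depends on whether an adenine stretch is present near its end as well as on transcription.

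The ends of the transcripts are shown for that reason. In the GENCODE annotation of GRCm38, the 16 letters GGNNCTTTTNAGNGCC, searched on the transcribed strand, were found in the annotated transcript of 41 of the 67 members (61.2%, the longest protein-coding transcript of each gene), against 0.085% of 58797 protein-coding transcripts. A poly(A) signal (AATAAA or ATTAAA) within the last 50 bases was annotated for 17 members (25.4%), against 50.2% of all protein-coding transcripts. The windows below are 30 bases of the 3′ UTR, 5′ to 3′ on the transcribed strand, with the matched letters in capitals. They come from members with many UMIs, with or without an annotated terminal poly(A) signal, and from Hist4h4 because its stem has other letters.
Hist1h2ap stem-loop: aaaaaaaaaaaGGCTCTTTTCAGAGCCatc
Hist1h2ae stem-loop: aaacaaaGGCTCTTTTCAGAGCCattcact
Hist1h2ae poly(A) signal: cccagcttctccAATAAAtgggtcaatttt
Hist1h1e stem-loop: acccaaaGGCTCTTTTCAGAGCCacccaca
Hist1h1c stem-loop: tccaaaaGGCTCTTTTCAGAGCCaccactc
Hist1h1c poly(A) signal: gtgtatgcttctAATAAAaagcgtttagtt
Hist3h2ba stem-loop: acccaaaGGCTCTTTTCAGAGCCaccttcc
Hist3h2ba poly(A) signal: cataatggtattAATAAAtttggttcaatt
Hist3h2a stem-loop: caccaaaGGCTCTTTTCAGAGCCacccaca
Hist3h2a poly(A) signal: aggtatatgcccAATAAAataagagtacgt
Hist4h4 stem-loop: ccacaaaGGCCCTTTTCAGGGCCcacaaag
The annotated transcript of Hist1h2ap ends 3 bases after its stem-loop and holds a run of 12 adenines directly before it. Runs of at least 10 adenines, anywhere in the transcript, were found in 4 members (5.97%), against 9.27% of all protein-coding transcripts. The annotated transcripts of Hist3h2ba and Hist3h2a run on for 169 and 1643 bases after the stem-loop and end in a poly(A) signal, and those of Hist1h2ae and Hist1h1c do so after 151 and 840 bases. That of Hist1h1e runs on for 1153 bases with no such signal at its end, and no stem-loop letters were found in Hist1h2bc. Hist4h4, the only H4 gene shown, differs from the others shown in the letters of its stem. Other H4 genes, such as Hist1h4c and Hist1h4d, hold the same letters as Hist4h4. No 3′ UTR was annotated for 13 members, Hist1h1b and Hist1h2ak among them, so their ends could not be searched.

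The 54 Hist1 members lie on chromosome 13 (GRCm38 chr13:21715763-23934851), the 10 Hist2 members on chromosome 3 (chr3:96219865-96270132), the 2 Hist3 members on chromosome 11 (chr11:58948920-58956830) and Hist4h4 on chromosome 6 (chr6:136801553-136804415). RefSeq promoters of the same build, 250 bases before to 50 after each start, were matched for 62 members and compared with all 32851 promoters in the table, both strands being searched. CCAAT was found in 53 members' promoters (85.5%, against 37.4% of all), TATAAA in 35 (56.5%, against 13.6%), the octamer ATTTGCAT in 13 (21.0%, against 1.74%) and AAACACA in 9 (14.5%, against 7.18%). The octamer was found in 7 H2A and 6 H2B promoters, and AAACACA in 5 of 6 H1 promoters, while 3 of 12 matched H4 promoters held CCAAT. The 250 bases before the start of Hist1h1b, an H1 gene that was high in dividing cells, and of Hist3h2ba, an H2B gene that was low in them, are shown with these motifs in capitals on either strand.
Hist1h1b, chr13:21780626-21780875, minus strand: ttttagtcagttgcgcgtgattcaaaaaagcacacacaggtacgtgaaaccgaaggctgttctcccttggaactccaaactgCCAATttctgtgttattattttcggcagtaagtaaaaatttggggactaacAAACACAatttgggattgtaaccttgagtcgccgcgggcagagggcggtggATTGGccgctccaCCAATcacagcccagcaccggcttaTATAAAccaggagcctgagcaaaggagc
Hist3h2ba, chr11:58948661-58948910, plus strand: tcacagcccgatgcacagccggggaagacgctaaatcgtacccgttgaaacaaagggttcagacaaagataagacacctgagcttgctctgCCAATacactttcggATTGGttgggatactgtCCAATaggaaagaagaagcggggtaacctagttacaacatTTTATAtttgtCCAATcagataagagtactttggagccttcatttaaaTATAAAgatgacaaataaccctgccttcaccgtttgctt
Both promoters held CCAAT and TATAAA, 3 and 1 times in Hist1h1b and 4 and 2 times in Hist3h2ba. A match is a description of the letters and not of binding.

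After filtering, 2957 cells of the control library and 1931 of the KO library were kept, with median depths of 7342 and 9267 UMIs (unique molecular identifiers, each counting 1 captured transcript). Cells were called dividing when, after thinning to 2000 UMIs, they held at least 3 UMIs of 70 S-phase and G2/M genes that include no histone gene. By that call 694 of 2755 control cells (25.2%, 95% exact binomial interval 23.6% to 26.9%) and 380 of 1773 KO cells (21.4%, 19.5% to 23.4%) were dividing. Median depths of the dividing cells were 7564.5 and 10774 UMIs, and of the non-dividing cells 8233 and 10443. Kdm6b itself stood at 58.1 (55.5 to 60.8) and 57.7 (54.8 to 60.7) CPM (the UMIs of a gene per 1000000 UMIs of the same cells) over all control and KO cells. Such 3′ counts do not check the deletion, since which part of the gene is deleted is not given in the sources used here. Cells holding Y-linked transcripts but lacking Xist made up 33.3% of the control library and 0% of the KO library, so comparisons over all cells set a library with such cells against one without. Cells that hold Xist can be matched between the libraries, while animal and genotype cannot be told apart. The KO library's dividing cells held more ependymal-like cells, at 24.5% (20.2% to 29.1%) against 8.07% (6.15% to 10.4%). Fewer of them belonged to cluster 6, which received no class name, at 20% against 28.4%. Among the 70 cell-cycle genes, the mitotic genes Top2a, Ube2c and Cenpf gave the most UMIs in that cluster.

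The 67 members gave 39056 UMIs, 22785 in control and 16271 in KO cells, or 723 and 638 CPM. Of the members, 23 reached 100 UMIs over both libraries, 10 had 20 to 99, 28 had 1 to 19, and 6 had none (Hist1h2ao, Hist1h3h, Hist1h2ah, Hist1h4m, Hist1h2ba and Hist1h2aa, where a count of 0 allows up to 3 UMIs). The last members above the minimum of 100 were Hist1h2be at 105 UMIs and Hist2h3c1 at 101, and the first below was Hist2h3c2 at 86. At the lower minimum, Hist2h2bb stood at 20 UMIs and Hist1h2bg at 18. UMIs were concentrated in 8 members, which held 91.4% of them: Hist3h2ba (8745), Hist1h2ap (8306), Hist3h2a (6246), Hist1h2bc (3401), Hist1h1e (3263), Hist1h1c (2182), Hist1h2ae (1964) and Hist1h1b (1585). These are captured 3′ ends and do not rank the genes by expression. By family, H2A members gave 44.8% of the UMIs, H2B 32.2%, H1 18.9%, H4 2.95% and H3 1.15%. The number of members that reached 100 UMIs was 5 of 6 for H1, 7 of 18 for H2A, 4 of 18 for H2B, 2 of 12 for H3 and 5 of 13 for H4. Of the 17 members with an annotated terminal poly(A) signal, 11 reached 100 UMIs, with a median of 113 UMIs. Of the other 50 members, 12 did, with a median of 13.5 UMIs. These 50 include the 13 members with no annotated 3′ UTR (median 8 UMIs), whose ends could not be searched. Members with near-identical transcript ends, among them Hist1h2ap with Hist1h2ao and Hist2h2aa1 with Hist2h2aa2, have uncertain counts. So has Hist1h1e, whose last 100 bases lie inside a transcript of the overlapping gene Hist1h2be. How shared reads were divided is not given in the sources used here.

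Dividing cells held more clustered histone RNA than non-dividing cells, and the Hist1 and Hist3 arrays went in opposite directions. Summed over all members, the level was 1384 CPM in dividing and 503 in non-dividing control cells, a 2.75-fold difference (2.68 to 2.82). In the KO library it was 1235 and 471 CPM, or 2.62-fold (2.54 to 2.71). The 54 Hist1 genes together stood at 1247 against 160.1 CPM in the control library and at 1116 against 159 in the KO library, 7.79-fold and 7.03-fold higher in dividing cells. Without Hist1h2ap the folds were 4.76 and 4.39. The 2 Hist3 genes were 3.21-fold lower in dividing cells of the control library (102 against 328 CPM) and 3.19-fold lower in the KO library (93.4 against 298). Among the 24 members with enough UMIs to be compared, 12 were at least 2-fold higher in dividing cells in both libraries, where 20.4% of all genes tested were, and 2 were at least 2-fold lower, where 13.8% of all genes were. The median log2 ratio of these members was 1.21 in control and 1.33 in KO cells, against 0.20 and 0.21 over all genes. A TMM scaling lowered each of these log2 ratios by 0.27 in control and 0.33 in KO cells. It moved the share of higher calls among all called genes from 59.6% to 45.6%, and left the directions of the Hist1 and Hist3 sums as they were.

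The H1 linker histones, which bind DNA between nucleosomes, were led by Hist1h1b (chr13:21779883-21780625, minus strand, H1.5). Its level was 118 CPM in dividing against 1.97 in non-dividing control cells, and 105 against 1.62 in the KO library, log2 ratios of 5.89 and 5.99. Both libraries thus put this gene near 0 outside the dividing cells. Hist1h1a stood at 16.2 against 0.68 CPM in control and 9.91 against 0.51 in KO cells (log2 4.53 and 4.23). Hist1h1e (chr13:23620629-23622558, minus strand) was high in dividing cells too but kept a level outside them, with 151 against 27.6 CPM in control and 147 against 30.7 in KO cells (log2 2.45 and 2.26). Hist1h1d had log2 ratios of 2.97 in both. Hist1h1c, whose transcript ends in a poly(A) signal, showed the smallest ratio of the 5, at 62.8 against 31.1 CPM in control and 59.3 against 31.1 in KO cells (log2 1.01 and 0.93), and missed the 2-fold mark in the KO library. The testis gene Hist1h1t gave 1 UMI in all.

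Among the H2A genes, which with H2B form the dimers on the outside of the nucleosome core, Hist1h2ap (chr13:21833026-21833507, minus strand) stood at 580.4 CPM in dividing and 20.2 in non-dividing control cells (4549 and 472 UMIs). In the KO library it stood at 512 and 21.0 CPM (2841 and 414 UMIs), so the folds were 28.7 (26.2 to 31.7) and 24.4 (22.0 to 27.1). Hist1h2ae (chr13:23570517-23571220, minus strand) followed with 131 against 8.21 CPM and 97.3 against 9.84 (log2 4.0 and 3.30). Hist1h2ak was at 17.99 against 0.77 CPM in control and at only 3.42 against 0.15 in KO cells. Its log2 ratios, 4.51 and 4.31, were close although the levels were not. Under other settings they ran from 4.09 to 4.71 in control and from 2.91 to 5.15 in KO cells, where the non-dividing level lay near 0. The H2A gene of the Hist3 array, Hist3h2a (chr11:58954685-58956830, plus strand), went the other way, at 47.0 against 132 CPM and 45.2 against 127 (log2 -1.49 and -1.48). Hist2h2ac was higher in dividing cells (14.8 against 1.97 CPM and 9.19 against 2.08), while Hist2h2aa1 (log2 0.92 and 0.69) and Hist1h2ac (0.71 and 1.48) missed 2-fold in at least 1 library.

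The H2B genes behaved as a mixed group. Their sum was 1.49-fold lower in dividing cells of the control library (168 against 250.3 CPM) and 1.28-fold lower in the KO library (171 against 219). Hist3h2ba gave most of the sum in non-dividing cells and Hist1h2bc in dividing cells. Hist3h2ba (chr11:58948920-58949533, plus strand), which lies 5151 bases from Hist3h2a on the same strand, stood at 55.2 against 196 CPM in control and 48.1 against 171 in KO cells (log2 -1.82 and -1.83). Hist1h2bc (chr13:23684199-23692908, plus strand) was higher in dividing cells, at 95.3 against 49.6 CPM and 106 against 43.3 (log2 0.94 and 1.29). This direction turned in both libraries when S-phase genes alone called a cell dividing (-0.18 and -0.66) and when at least 15 cell-cycle UMIs did (-0.55 and -0.033). Ependymal-like cells gave 346 of the 747 Hist1h2bc UMIs in dividing control cells and 329 of the 588 in dividing KO cells. The part of cell makeup in the Hist1h2bc ratios was not tested. Hist2h2be passed 2-fold in both libraries (log2 1.35 and 1.28) and Hist1h2be in 1 (0.71 and 1.35).

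H3 and H4, which form the tetramer at the centre of the nucleosome, were thinly captured. The 12 H3 genes summed to 14.8 against 5.73 CPM in control and 14.2 against 5.93 in KO cells, 2.58-fold and 2.40-fold higher in dividing cells. The 13 H4 genes summed to 36.9 against 14.9 CPM and 37.8 against 14.8, or 2.47-fold and 2.57-fold. Of the single genes, Hist1h3d (log2 1.94 and 1.88), Hist1h4d (2.46 and 2.29) and Hist1h4i (1.49 and 1.30) were at least 2-fold higher in both libraries. The KO value of Hist1h4i turned to -0.15 when S-phase genes alone called a cell dividing. Hist1h4h (0.03 and 1.05) and Hist4h4 (1.06 and 0.43) passed in 1 library each, and Hist2h4 (-0.24 and 0.29) and Hist2h3c1 (-0.74 and -0.49) in neither. The plot of members' levels in dividing and non-dividing cells shows these groups side by side.

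**Figure D1:**
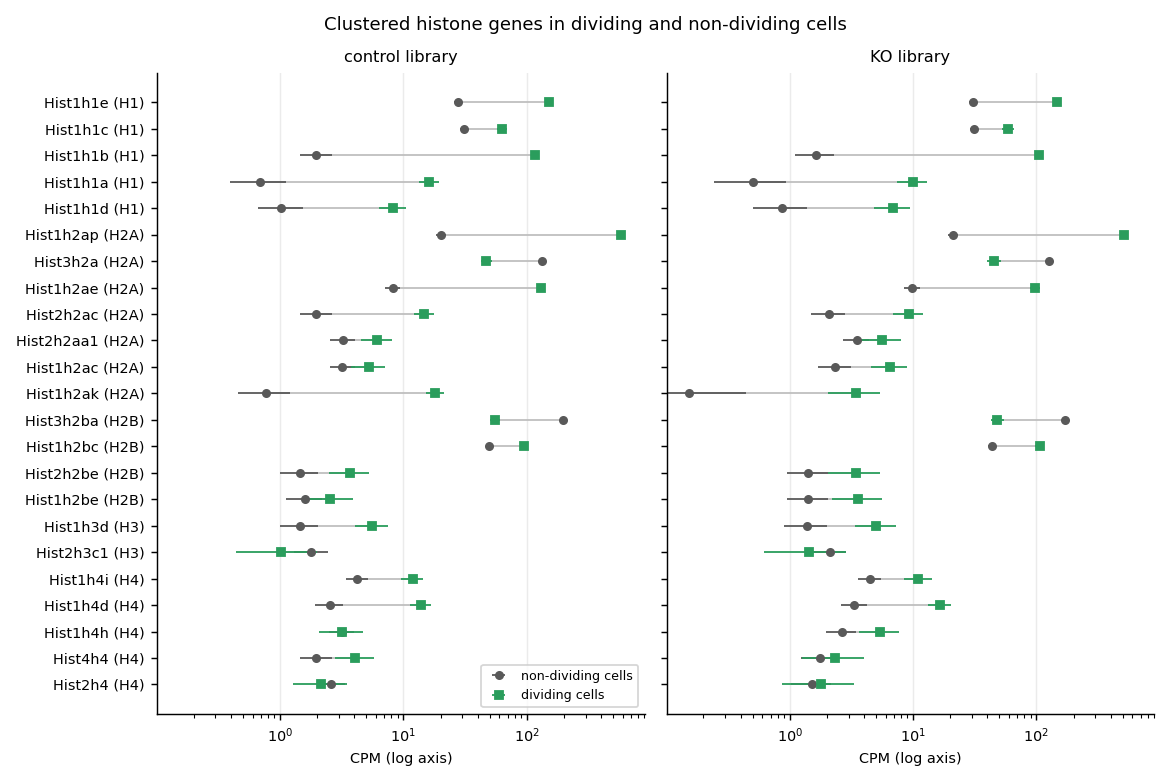
Levels of the 23 members with at least 100 UMIs in dividing (green squares) and non-dividing cells (grey circles) of the control (left) and KO (right) library, in CPM on a log axis, with 95% Poisson intervals. Hist1h2ap and Hist1h1b are far higher in dividing cells in both panels, and Hist3h2ba and Hist3h2a are the 2 members at least 2-fold lower there in both libraries.

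The same contrast was seen in the share of cells holding a UMI. Of cells thinned to 2000 UMIs, 37.2% of dividing control cells (258 of 694) and 31.8% of dividing KO cells (121 of 380) held Hist1h2ap, against 3.93% and 4.38% of non-dividing cells. Unthinned, the shares were 52.9% and 50.8% of dividing and 16.5% and 21.0% of non-dividing cells. Non-dividing pyramidal neuron-like cells, which should lack S-phase histone RNA, held it in 4.11% and 4.28% of thinned cells (26.7% and 28.2% unthinned, median depths 16305 and 17731 UMIs). These cells were 779 of the 2061 non-dividing control cells and 607 of 1393 in the KO library, so their share is not independent of that of all non-dividing cells. By class, non-dividing levels ranged from 8.55 CPM in GABAergic neuron-like control cells to 47.5 in astrocyte-like KO cells, with endothelial-like cells at 32.3 and 36.6. In cluster 6 the thinned shares were 67.0% and 61.8%. Of all Hist1h2ap UMIs in the cells of sufficient depth, 90.6% and 87.3% lay in dividing cells, and of Hist1h1b UMIs 95.2% and 94.8%. The single cells richest in Hist1h2ap held 72 and 105 UMIs of it.

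Hist3h2ba showed the reverse. A UMI was present in 31.3% and 26.0% of thinned non-dividing cells and in 14.99% and 12.9% of dividing cells, and unthinned in 65.9% and 63.0% against 36.0% and 36.6%. Among non-dividing neuroblast-like cells, which were shallower (median 3702.5 and 4716 UMIs), the thinned shares were 53.7% and 56.9%. Endothelial-like cells were far deeper (22181 and 20565 UMIs) and held it in 0.552% (1 of 181) and 1.18% (2 of 169) of thinned cells, or 8.84% and 6.51% unthinned. Dividing cells held 8.63% and 7.33% of Hist3h2ba UMIs and 10.7% and 9.14% of Hist3h2a UMIs. The dividing call took in 37 and 8 neuroblast-like cells (at most 7 and 4 cell-cycle UMIs). It also took in 14 and 6 Cajal-Retzius cell-like cells (at most 5 in each library). Of the 433 and 267 Hist3h2ba UMIs in dividing cells, neuroblast-like cells gave 61 and 13 and Cajal-Retzius cell-like cells 16 and 12. GABAergic neuron-like cells gave 6 and 24, and pyramidal neuron-like cells 15 and 26.

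Levels were then followed across the number of cell-cycle UMIs per thinned cell, leaving out ependymal-like cells. Hist1h2ap stayed low at 0, 1 and 2 UMIs (17.99, 19.7 and 29.7 CPM among control cells, 19.6, 22.1 and 21.5 among KO cells). It was 111 and 156 CPM at 3 to 4 UMIs, 498 and 694 at 10 to 14, and 1298 and 1740 at 15 to 24. In cells with 25 or more it was 1448 in control and 1202 in KO cells. The level was higher from 3 to 4 UMIs on, where the dividing call was made. Of all cells, 326 and 193 lay at 2 UMIs, just outside the call, and 135 and 72 at 3, just inside it. The Hist3 genes together stood at 355 and 323 CPM at 0 UMIs and at 58.7 and 47.3 at 5 to 9. They were at 113 and 147 CPM in cells with 25 or more, above the 74.2 and 59.9 CPM at 15 to 24, so their level was lowest in the middle of the range. Hist1h2bc kept between 33.4 and 75.2 CPM at 0, at 5 to 9 and at 25 or more UMIs, whereas ependymal-like cells held 152 to 410 CPM of it in every bin with at least 10 cells.

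**Figure D2:**
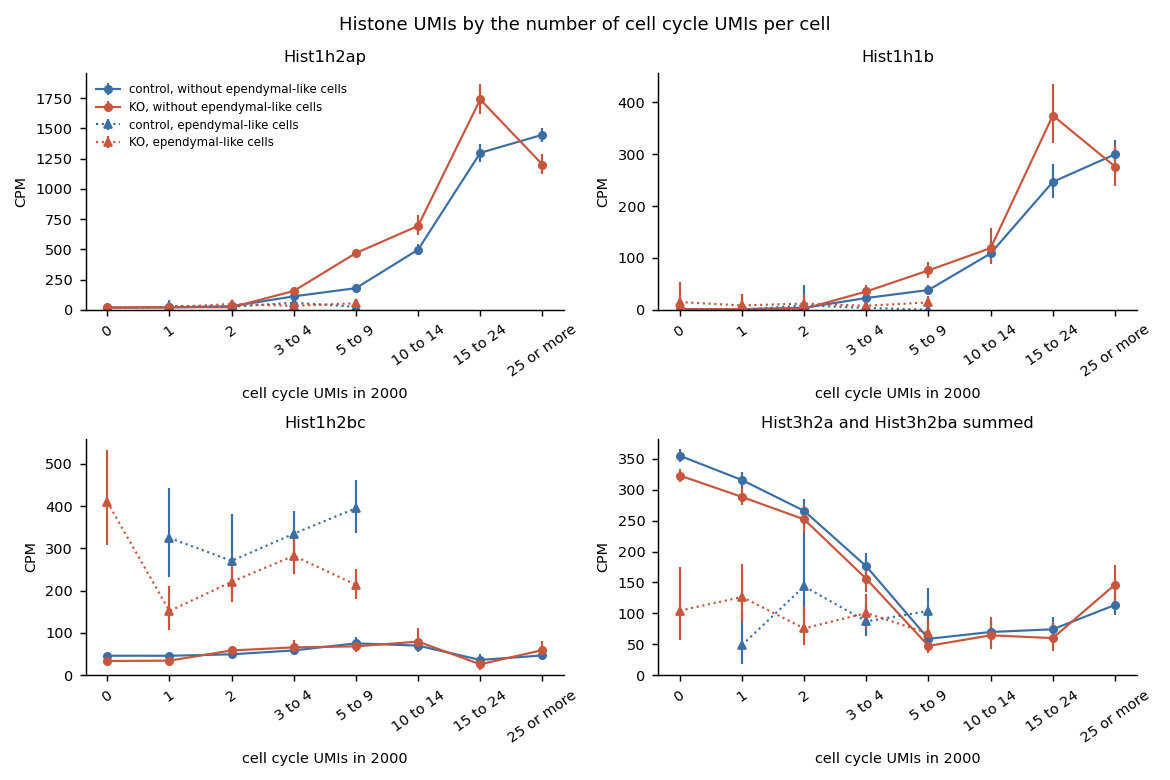
CPM of Hist1h2ap, Hist1h1b, Hist1h2bc and the 2 Hist3 genes summed, against the number of cell-cycle UMIs per cell thinned to 2000 UMIs, for bins with at least 10 cells (solid lines with circles without ependymal-like cells, dotted lines with triangles ependymal-like cells, blue control, red KO). Hist1h2ap runs from 17.99 and 19.6 CPM at 0 cell-cycle UMIs to 1448 and 1202 at 25 or more, and the Hist3 sum falls from 355 and 323 to 58.7 and 47.3 at 5 to 9.

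Within the dividing cells, 262 control and 109 KO cells held more S-phase than G2/M UMIs, and 411 and 256 the reverse. The S-phase histone genes did not differ by 1.5-fold between these groups in both libraries. Hist1h2ap stood at 525 CPM in S and 614 in G2/M cells of the control and at 521 and 517 in the KO library (log2 -0.23 and 0.01). Hist1h1b had ratios of -0.29 and -0.02, and Hist1h1e of -0.39 and 0.23. At least 1.5-fold higher in S than in G2/M cells of both libraries were 2 of 17 members, Hist3h2ba and Hist3h2a, where 5.88% of all genes were, and 1 was lower, Hist1h2bc, where 8.03% of all genes were. Hist3h2ba stood at 84.1 against 43.7 CPM in control and 102 against 35.9 in KO cells, and Hist3h2a at 65.5 against 39.0 and 69.4 against 38.8. Hist1h2bc stood at 59.9 against 101 CPM and 49.3 against 120.0. Cells of different classes were unequally present in both groups, and the part of that in these values was not tested.

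Across the marker-defined classes the members fell into a few patterns. Hist1h2ap was highest in cluster 6, at 1421 CPM in control and 1518 in KO cells, followed in the control library by oligodendrocyte lineage-like cells at 802 and 277 and mural-like cells of the vessel wall at 456 and 277. Astrocyte-like cells (255 and 162 CPM), endothelial-like cells (211 and 279) and intermediate progenitor-like cells (154 and 44.4) held intermediate levels. In the neuron-like classes it lay between 8.82 and 19.9 CPM. Pyramidal neuron-like cells (19.9 and 19.4 CPM, intervals 17.7 to 22.4 and 16.9 to 22.1) and GABAergic neuron-like cells (10.1 and 15.7, 5.89 to 16.2 and 10.97 to 21.9) differed beyond their intervals in the control and not in the KO library. Hist1h1b and Hist1h2ae were also highest in cluster 6 of the classes named here (293 and 361 CPM, 357 and 345 CPM), and Hist1h1b was at 0.35 and 0.17 CPM in pyramidal neuron-like cells.

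Hist3h2ba and Hist3h2a were high in most classes of the neuronal lineage, and Hist3h2ba also in oligodendrocyte lineage-like cells. Hist3h2ba stood at 420 and 432 CPM in neuroblast-like cells, 340 and 437 in intermediate progenitor-like cells, 244 and 463 in granule neuron-like cells, 237 and 233 in GABAergic neuron-like cells and 219 and 198 in pyramidal neuron-like cells. Radial glia/neural stem cell-like cells stood at 90.3 and 61.8 CPM, and Cajal-Retzius cell-like cells that were not dividing at 136 and 108 CPM. It was 150.1 and 259 CPM in oligodendrocyte lineage-like cells (191 and 333 in the non-dividing ones), 26.5 and 46.7 in astrocyte-like cells and 5.51 and 3.46 in endothelial-like cells (23 and 13 UMIs). Hist3h2a had its highest levels in the same neuron-lineage classes, at 286 and 249 CPM in intermediate progenitor-like and 260 and 218 in neuroblast-like cells, and its lowest in endothelial-like cells, at 23.97 and 27.4 CPM. Over the 24 control and 22 KO clusters large enough to be used, the levels of both genes had rank correlations of 0.95 and 0.82. These points share libraries and gene annotation, and the correlation is a description. Both genes had high levels in the same classes in both libraries.

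Hist1h2bc was highest in ependymal-like cells, at 341 CPM in control and 238 in KO cells, followed by unnamed cluster 17 at 244 and 233. Radial glia/neural stem cell-like cells held 112 and 142 CPM and astrocyte-like cells 107 and 73.1. In Cajal-Retzius cell-like cells it was 5.12 and 2.83 CPM. Ependymal cells are the ciliated cells that line the ventricles. A UMI was present in 50% (28 of 56) and 33.3% (31 of 93) of thinned ependymal-like cells called dividing (89.3% and 73.1% unthinned, median depths 16896.5 and 14882 UMIs), and in 6.16% and 4.94% of non-dividing pyramidal neuron-like cells (37.7% and 28.7% unthinned). The linker gene Hist1h1c shared part of this pattern, with 139 and 98.0 CPM in ependymal-like and 99.2 and 118 in astrocyte-like cells against 14.9 and 7.20 in GABAergic neuron-like cells. Hist1h1e was at 182 and 187 CPM in astrocyte-like, 139 and 168 in radial glia/neural stem cell-like and 12.5 and 13.2 in pyramidal neuron-like cells.

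**Figure D3:**
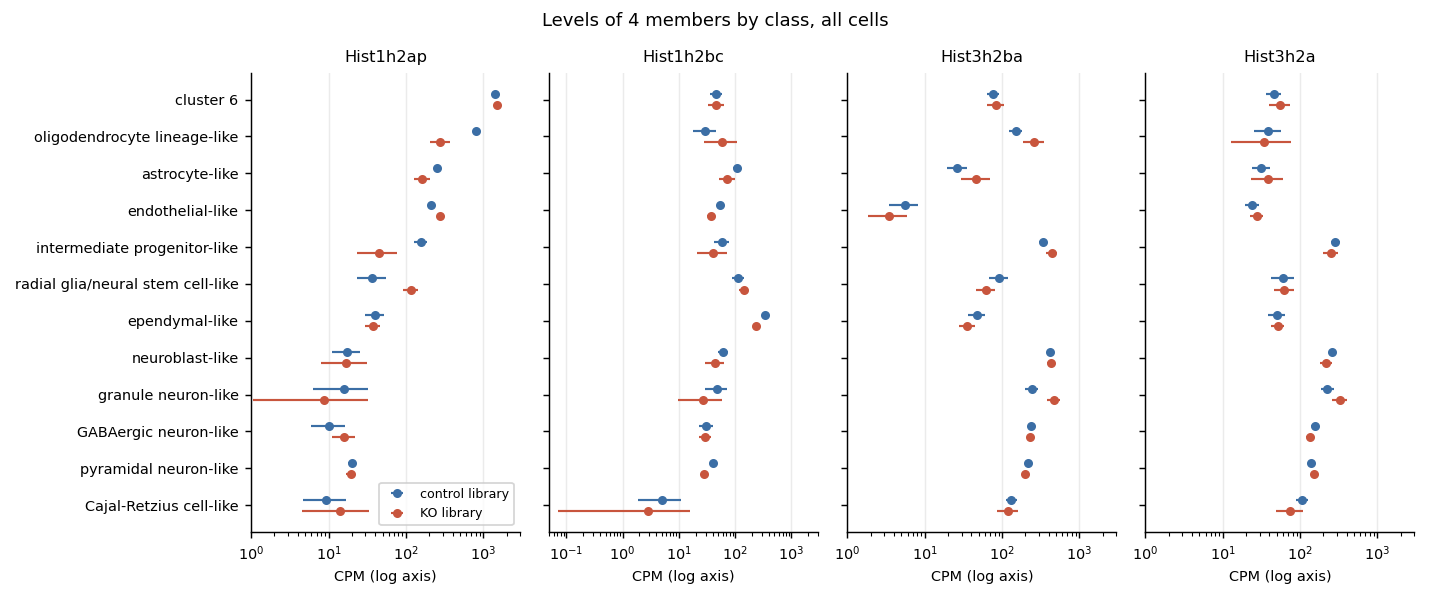
CPM (log axis, 95% Poisson intervals) of Hist1h2ap, Hist1h2bc, Hist3h2ba and Hist3h2a in cluster 6 and 11 marker-defined classes, all cells, control in blue and KO in red. Hist1h2ap peaks in cluster 6 (1421 and 1518 CPM), Hist1h2bc in ependymal-like cells (341 and 238) and Hist3h2ba in neuron-lineage classes, with endothelial-like cells at 5.51 and 3.46.

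Since dividing and non-dividing cells differ in cell type, the contrast was repeated within classes. In oligodendrocyte lineage-like cells of the control library the Hist1 genes summed to 2339 CPM in 69 dividing and 134 in 61 non-dividing cells, a 17.3-fold difference, and the KO library held too few such cells. In intermediate progenitor-like cells the sum was 1005 against 198 CPM in control and 359 against 160 in KO cells (log2 2.34 and 1.17). Astrocyte-like cells showed 1614 against 402 CPM and 1166 against 456 (2.01 and 1.35). Endothelial-like cells, outside the reach of the Cre line, showed 671 against 188 CPM and 1002 against 195 (1.83 and 2.36). Among 11 members compared within endothelial-like cells, 4 were at least 2-fold higher in dividing cells in both libraries (Hist1h1b, Hist1h2ap, Hist1h2ae and Hist1h1e), where 1.93% of all genes were, and 0 were lower, where 0.18% of all genes were. Hist1h2ap alone stood there at 319 against 32.3 CPM in control and 546 against 36.6 in KO cells. Its thinned share of cells was 37.0% and 47.8% of dividing against 6.17% and 4.90% of non-dividing endothelial-like cells.

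In ependymal-like cells no such Hist1 difference was detectable at this depth. Of them 68.3% in control and 63.3% in KO cells were called dividing, yet 0 and 2 cells held 15 or more cell-cycle UMIs, and the genes Top2a, Nuf2 and Cenpf were among those that gave most of the calls. The Hist1 sum was 637 against 671 CPM in control and 514 against 577 in KO cells, and Hist1h2ap 41.9 against 26.7 and 39.7 against 32.8. The thinned share of dividing ependymal-like cells with Hist1h2ap was 7.14% (4 of 56) and 10.8% (10 of 93). Without ependymal-like cells, the log2 ratio of all members between dividing and non-dividing cells was 1.56 in control and 1.64 in KO cells.

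For the Hist3 genes the contrast within classes was smaller than the pooled one. Intermediate progenitor-like cells had 385 against 755 CPM in control and 505 against 763 in KO cells (log2 -0.97 and -0.59), and oligodendrocyte lineage-like cells of the control 145 against 246 (-0.76). In astrocyte-like (0.22 and -0.07), endothelial-like (0.42 and -0.08), radial glia/neural stem cell-like (0.39 and 0.06) and ependymal-like cells (-0.08 and -0.32) no such difference was detectable at this depth. The part of cell makeup in the pooled Hist3 difference was not tested further.

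**Figure D4:**
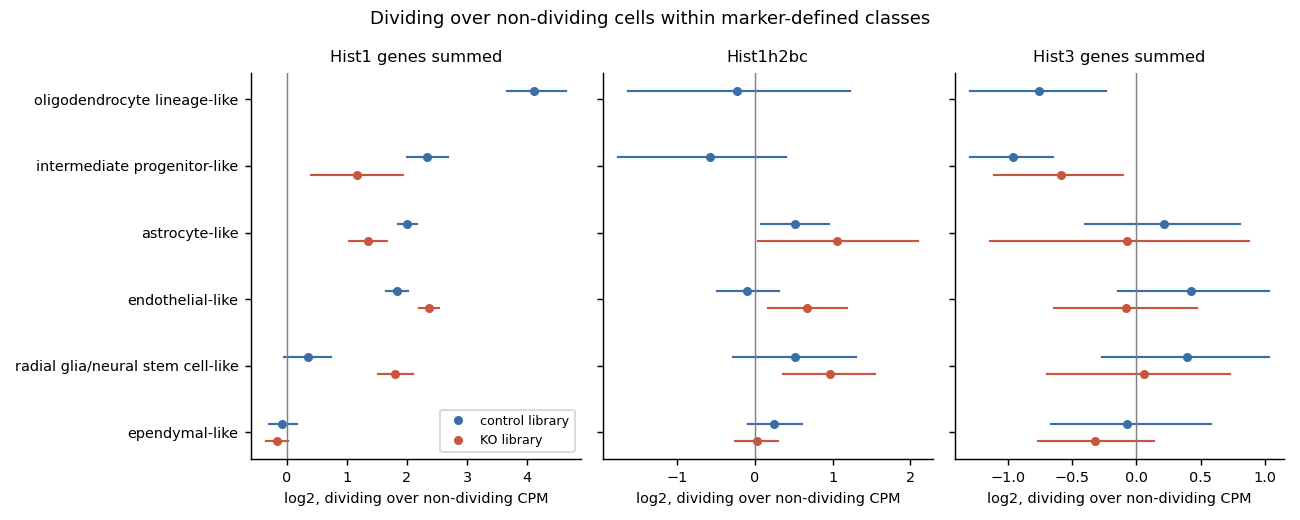
Log2 ratio of CPM in dividing over non-dividing cells within 6 classes, for the Hist1 genes summed, Hist1h2bc and the Hist3 genes summed, with 95% intervals, control in blue and KO in red (missing points had too few cells or UMIs). The Hist1 sum lies above 0 in 5 classes of the control library, with radial glia/neural stem cell-like cells reaching across 0 in their interval, and near 0 in ependymal-like cells, and the Hist3 sum lies clearly below 0 in intermediate progenitor-like cells.

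The comparison between genotypes asked whether the KO library's cells differed in clustered histone RNA once dividing and non-dividing cells were taken apart. In dividing cells the sum over all members was 1235 CPM in the KO and 1384 in the control library (log2 -0.16, ratio 0.866 to 0.92). In non-dividing cells it was 471 against 503 (log2 -0.09, 0.911 to 0.963). Both differences exceeded counting error, but the non-dividing one no longer did when cells with Xist alone were used (-0.020) or without the Hist3 genes (-0.015). Ependymal-like cells, which hold less Hist1h2ap than other dividing cells, gave 25% of the UMIs of the dividing KO cells and 12.5% of those of the dividing control cells. Without them the ratio in dividing cells was -0.03 on the log2 scale (interval -0.078 to 0.015), so the dividing difference too lay within counting error. By array the dividing ratios were -0.16 for Hist1, -0.41 for Hist2 (0.604 to 0.935) and -0.13 for Hist3 (0.816 to 1.02). By family they were -0.12 for H1, -0.24 for H2A, 0.03 for H2B, -0.05 for H3 and 0.04 for H4.

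Of 27 members compared in dividing cells, 2 were at least 1.5-fold higher in the KO library, where 11.9% of all genes were, and 5 were lower, where 7.18% of all genes were. The higher members were Hist1h4h (log2 0.76, ratio 0.96 to 3.01) and Hist1h2bp (2.29, 2.04 to 15.6, from 6 and 22 UMIs). The lower were Hist1h2ak (-2.36, 0.11 to 0.31), Hist1h2ab (-1.46, 0.081 to 1.02, from 17 and 4 UMIs), Hist4h4 (-0.77, 0.28 to 1.12), Hist1h1a (-0.70, 0.44 to 0.85) and Hist2h2ac (-0.68, 0.44 to 0.87). The intervals of Hist1h4h, Hist4h4 and Hist1h2ab include 1, and the log2 ratio of Hist4h4 turned to 0.13 as a mean over cells. Over all dividing cells the abundant members had ratios nearer 0: Hist1h2ap had a log2 ratio of -0.18 (0.84 to 0.92), Hist1h1b -0.16 (0.80 to 0.99), Hist1h2ae -0.43 (0.67 to 0.82), Hist1h1e -0.04, Hist1h2bc 0.15 (1.0 to 1.24) and Hist3h2ba -0.20 (0.74 to 1.02). In non-dividing cells 0 of 26 members were at least 1.5-fold higher, where 9.64% of all genes were, and 2 were lower, where 5.08% of all genes were, namely Hist1h2ak (-2.16, 0.04 to 0.68) and Hist2h4 (-0.77, 0.36 to 0.92). The median log2 ratio of the compared members was -0.14 in dividing and -0.07 in non-dividing cells, against 0.02 and 0.00 over all genes.

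**Figure D5:**
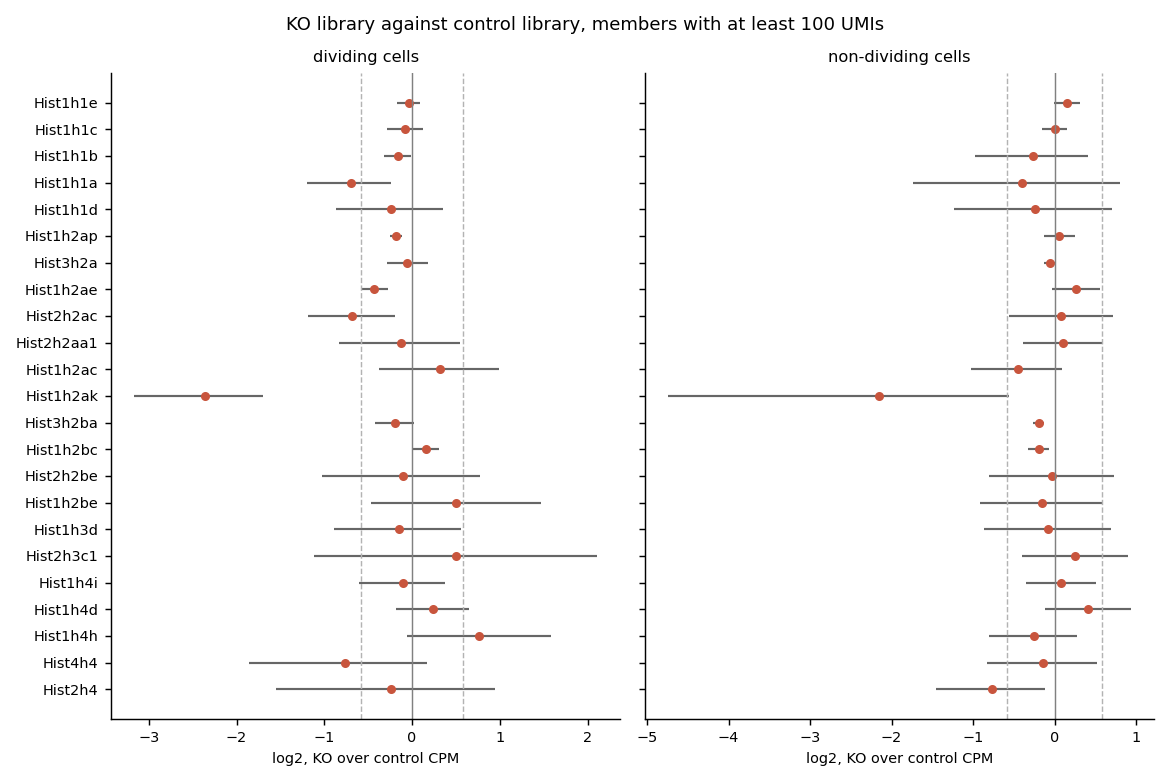
Log2 ratio of CPM in the KO over the control library for the 23 members with at least 100 UMIs, in dividing and in non-dividing cells, with 95% counting intervals and dashed lines at 1.5-fold. Most members lie between the lines, and Hist1h2ak lies lowest in dividing cells (-2.36).

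Hist1h2ak (chr13:21753435-21753827, minus strand) was examined further after its value had been seen. Dividing control cells held 141 UMIs of it and dividing KO cells 19, and UMIs were found in 18 control clusters and 5 KO clusters. In the dividing cells of cluster 6 it stood at 50.2 CPM in control and 8.20 in KO cells (ratio 0.06 to 0.37), while Hist1h2ap there was 1457 and 1602. In dividing endothelial-like cells it stood at 8.08 and 5.04 CPM (21 and 9 UMIs, ratio 0.25 to 1.42), a difference within counting error, and in unnamed cluster 19 each library held 4 UMIs. The control library was then divided by sex-linked transcripts. Its 346 dividing cells that held Xist without a Y-linked transcript had 120 UMIs of Hist1h2ak, or 31.6 CPM (26.2 to 37.7). Its 216 dividing cells with Y-linked transcripts and without Xist had 11, or 3.99 CPM (1.99 to 7.13), and the 369 dividing KO cells with Xist held 19, or 3.47 CPM (2.09 to 5.41). The level thus differed as much inside the control library as between libraries, with a log2 ratio of 2.93 (4.27-fold to 16.3-fold), and the KO cells lay at the level of the Y-linked control cells. Hist1h2ap was at 564, 629.6 and 517 CPM in the same cell groups and Hist1h1b at 117, 120.3 and 106. Between these control groups 1 of 20 members was at least 1.5-fold higher in Xist cells, where 9.43% of all genes were, and 2 were lower, Hist4h4 and Hist1h4i, where 3.16% of all genes were. With Xist cells alone compared, the difference between the libraries thus remained, and animal and genotype cannot be told apart.

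In dividing cells of single classes, Hist1h2ap differed more than over all dividing cells. Its level in the KO library was higher among radial glia/neural stem cell-like cells (387 against 73.0 CPM, ratio 3.01 to 9.96) and endothelial-like cells (546 against 319, 1.56 to 1.88). It was lower in astrocyte-like (385 against 700.2, 0.42 to 0.71), oligodendrocyte lineage-like (611 against 1362, 0.32 to 0.62) and intermediate progenitor-like cells (112 against 412, 0.13 to 0.52), of which the KO library held 18, 9 and 15 dividing cells. In ependymal-like cells it stood at 39.7 against 41.9. These differences were not tested against each other. Under the radial glia name the values rest on 72 UMIs in 24 KO cells and 15 UMIs in 46 control cells. There, 5 KO and 4 control cells held 15 or more cell-cycle UMIs, as did 9 of 67 and 14 of 100 endothelial-like cells. So did 8 of 18 and 27 of 70 astrocyte-like cells and 6 of 9 and 41 of 69 oligodendrocyte lineage-like cells. Of the intermediate progenitor-like cells, 0 of 15 and 5 of 46 did. The part of such cells in these values was not tested.

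Summed over members and over dividing and non-dividing cells, the KO library was neither higher nor lower in all classes. Over all members, radial glia/neural stem cell-like cells stood at 703 CPM in the KO and 582 in the control library (log2 0.27, ratio 1.05 to 1.39) and endothelial-like cells at 631 and 540.0 (0.22, 1.10 to 1.24). Intermediate progenitor-like cells stood at 922 and 1121 (-0.28, 0.71 to 0.94), ependymal-like cells at 658 and 781 (-0.25, 0.78 to 0.92) and astrocyte-like cells at 804 and 899 (-0.16, 0.80 to 1.0). Pyramidal neuron-like (-0.09, 0.91 to 0.98), GABAergic neuron-like (-0.09, 0.86 to 1.03) and neuroblast-like cells (-0.02) differed least. Different clusters held most of 2 classes: radial glia/neural stem cell-like cells lay in cluster 16 for 84 of 167 control cells and in cluster 12 for 108 of 143 KO cells, and pyramidal neuron-like cells in cluster 0 (340) and cluster 2 (224). Of the 3 clusters under the radial glia name, cluster 12 stood at 399 CPM in control and 701 in KO cells (ratio 1.39 to 2.24) and cluster 16 at 701 and 851 (0.93 to 1.57). Cluster 24 (28 and 15 cells), among whose leading genes are the astrocyte genes Aldh1l1 and Aldoc beside Fabp7, stood at 579.5 and 219.7 (0.13 to 0.93). The directions for radial glia/neural stem cell-like and intermediate progenitor-like cells changed under other clusterings. In the dividing cells of cluster 6, all members stood at 3262 CPM in the KO and 3012 in the control library (log2 0.12, 1.03 to 1.14). Hist1h1b (383 against 301, 1.09 to 1.48) and Hist1h1e (418 against 329, 1.10 to 1.46) were each 0.35 higher on the log2 scale, Hist1h2ae stood at 365 against 366, and Hist1h2bc at 45.1 against 47.1. Cluster 6 cells carried a median of 31 cell-cycle UMIs in control and 23 in KO cells.

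Genes that work with the clustered histones were taken from lists of known roles. Of 10 tested histone variant genes outside the clusters, which supply replacement histones throughout the cycle, 6 were at least 2-fold higher in dividing cells of both libraries and 0 lower. H2afv stood at 794 against 151 CPM and 812 against 163, and H2afx had log2 ratios of 2.11 and 2.07, while H2afj was at -0.27 and -0.12. Of 17 histone chaperones and assembly factors, 6 were higher and 0 lower. Asf1b, a chaperone of new H3 and H4, stood at 32.7 against 0.86 CPM in the control (log2 5.22, and 5.11 in the KO library), Chaf1b, a subunit of the replication-coupled assembly factor CAF-1, had ratios of 3.65 and 3.34, and Atrx -0.38 and -0.39. Of 15 factors for transcription and 3′ processing of histone mRNA, 0 were higher and 1 lower, as Slbp (1.06 and 0.73) and Npat (1.04 and 0.82) did not reach 2-fold in both libraries. Lsm11, a component of the U7 particle that cuts histone pre-mRNA, was the lower gene, at 17.4 against 80.5 CPM in control and 14.1 against 106 in KO cells. The shares over all genes for the same calls were 20.4% higher and 13.8% lower, as given above. The list medians were 1.23 and 1.05 for the variants, 0.74 and 0.50 for the chaperones and 0.64 and 0.51 for the processing factors, against 0.20 and 0.21 over all genes.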

How the data were processed

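The deposited values are UMI counts per gene and cell from 10x Chromium 3′ libraries, made by the authors. The submitters' processing notes name Cell Ranger 3.0.2, Seurat 3 and mm10 with no role, and the annotation release is not given in the sources used here. Cells needed 500 genes, 1000 UMIs and at most 10% mitochondrial UMIs. Scrublet's own threshold marked 0.309% and 0.785% of barcodes, so the highest 0.8% per 1000 barcodes were removed instead. Clusters (scanpy 1.11.5, 2000 variable genes, 30 components, resolution 1) were named from marker lists, at least 3 detected markers being needed, and 4 of 26 stayed unnamed. The 2 libraries shared 6 barcodes. Counts were summed per group and compared as CPM with a prior of 0.5 UMI, genes with at least 20 UMIs being tested. Exact Poisson, conditional binomial and Clopper-Pearson 95% intervals cover counting error only. TMM factors came from edgeR 4.0.16 and served as an alternative. In all there were 36 planned and 6 added alternatives, a setting being counted once for each kind of comparison it was used for. Members with at least 100 UMIs are named with values, and those with 20 to 99 only at the ends of ranges, in counts of 5 or fewer or where called. Of the 3 other lists, up to 4 genes with the highest and lowest ratios are named. Members and lists were chosen with earlier results of these data known. Transcript ends come from GENCODE vM21 and promoters from RefSeq GRCm38.p6, both of the files' build.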

Additional observations from a re-analysis of the deposited data

Results flagged for a closer look

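In 4 cases the KO and control libraries differed in opposite directions, beyond counting error, in different cell groups. The differences between groups were not tested, since each group has 1 library per genotype, and 9 groups were compared. Hist1h2ap had a log2 KO over control ratio of 1.63 among the radial glia/neural stem cell-like cells (36.8 CPM in the control, 116 in the KO library, ratio 1.96 to 5.28) and of -1.75 in intermediate progenitor-like cells (154 and 44.4 CPM, 0.15 to 0.51). The Hist1 genes summed had ratios of 0.45 (405 and 553 CPM, 1.16 to 1.61) and -1.11 (474 and 218 CPM, 0.35 to 0.60) in the same classes. Hist1h2ae had 0.40 in endothelial-like cells (35.7 and 47.1 CPM, 1.05 to 1.65) and -1.40 in intermediate progenitor-like cells (48.9 and 17.1 CPM, 0.11 to 0.89). Hist3h2ba had 0.37 in intermediate progenitor-like cells (340 and 437 CPM, 1.03 to 1.59) and -0.15 in pyramidal neuron-like cells (219 and 198 CPM, 0.86 to 0.95). In cluster 12, which holds most KO cells among the radial glia/neural stem cell-like ones, Hist1h2ap stood at 18.5 CPM among control and 119 among KO cells, and in cluster 16, which holds most control cells of that class, at 54.2 and 114. Of the intermediate progenitor-like cells of sufficient depth, 30.3% of control and 29.4% of KO cells were dividing, and of the radial glia/neural stem cell-like cells 33.6% and 20.9%. These shares count every cell from 3 cell-cycle UMIs on. Among the intermediate progenitor-like cells, 5 control and 0 KO cells held 15 or more (highest 40 and 11). Under the radial glia name, 4 control and 5 KO cells did (highest 25 and 30). For both classes, the ratio over all members changed direction under other clusterings. The part of cell makeup and of cells with many cell-cycle UMIs in these values was not tested.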

How the results depend on the processing

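No paired analysis was possible because each genotype has 1 library and the labels carry no replicate numbers. For all members, the log2 ratio of dividing over non-dividing cells (1.46 in the control, 1.39 in the KO library) kept its direction under every setting tried. It was 1.15 and 1.10 when 2 cell-cycle UMIs called a cell dividing, 1.73 and 1.63 with 5, 1.57 and 1.48 with 0.15% of unthinned UMIs, 1.75 and 1.60 with the G2/M list alone and 1.98 and 1.87 with the S list alone. It was 0.74 and 0.68 without Hist1h2ap, 1.63 and 1.46 as a mean fraction per cell, 1.51 and 1.52 under a stricter cell filter, and 1.34 in the KO library with another thinning seed. Settings added after seeing the data gave 1.56 and 1.64 without ependymal-like cells, 2.87 and 2.72 without the Hist3 genes and 2.38 and 2.36 with at least 15 cell-cycle UMIs. The KO over control ratio in dividing cells (-0.16) was -0.24 with the G2/M list, -0.10 with the S list and -0.28 as a mean fraction. It was -0.10 under the stricter filter and -0.21 with TMM. Without ependymal-like cells (-0.031) and with at least 15 UMIs (-0.037) it lay within counting error. In non-dividing cells (-0.09) it was -0.0035 with the S list and -0.020 in cells holding Xist but no Y-linked transcript. It was -0.015 without the Hist3 genes and -0.019 with at least 15 UMIs. Each of these other settings left the non-dividing difference within counting error.

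Members at least 1.5-fold higher in dividing KO cells (2) numbered 5 with 2 cell-cycle UMIs, 4 with a minimum of 10 UMIs per gene and 1 with 50, and those lower (5) numbered 11 and 3 with those minimums. In non-dividing cells, higher members (0) numbered 2 with 2 cell-cycle UMIs and 1 with a minimum of 10. Lower members there (2) numbered 1 with a minimum of 50. The shares of all genes called under these settings were not counted, so these numbers have no background to be read against. By class, the ratio for intermediate progenitor-like cells (-0.28) was 0.16 at clustering resolution 0.5, 0.076 at resolution 2 and 0.089 with 4000 variable genes. That for radial glia/neural stem cell-like cells (0.27) was -0.22 at resolution 2, -0.16 with 4000 variable genes and -0.075 as a mean fraction. The endothelial-like ratio (0.22) was 0.33 with 4000 variable genes and the astrocyte-like ratio (-0.16) was 0.067 as a mean fraction. Among single genes, the KO library's dividing over non-dividing log2 ratio reversed for Hist1h4i (-0.15 with the S list, -0.15 with at least 15 UMIs) and Hist1h2bc (-0.66 and -0.033), as did that of Hist1h2bc in the control library (-0.18 and -0.55). The KO over control log2 ratio of Hist4h4 in dividing cells (-0.77) was 0.13 as a mean fraction and 0.15 with at least 15 UMIs. Of the single-gene values, 8 of 46 dividing over non-dividing ratios and 30 of 46 KO over control ratios changed sign under at least 1 setting. The cause of these changes was not tested. The other single-gene values numbered 135 that moved by more than their interval and 1109 that did not. Most H3 and H4 members have under 100 UMIs each, which limits what can be read from them. The parts of depth and of 3′ capture in these low counts were not tested.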

Other observations

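Hist1h2bp, an H2B gene with 37 UMIs in all, was examined because it was among the members higher in dividing KO cells. Cluster 8, which is ependymal-like, held 24 of these UMIs, 2 in the control library (1.55 CPM) and 22 in the KO library (10.5 CPM). In cluster 6 it gave 2 control UMIs and 0 KO UMIs. It was chosen after its values had been seen.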
